A study of Mus musculus with 21 samples.

Results

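Receptor chains of the gp130 family were followed through the transcriptomes of splenic T cells that carry an active form of gp130. The 6 members, Il6st, Il6ra, Il27ra, Lifr, Osmr and Il11ra1, were found by symbol among the 51201 gene IDs of the count tables, and all 6 had a row in both tables. For Il6st and Il6ra the single transcripts were followed as well, 10 and 2 of them. Libraries of polyadenylated RNA came from spleens of C57BL/6J mice at postnatal day 35. L-gp130fl/+;CD4Cre+/- mice were compared with CD4Cre+/- mice (controls), so Cre expressed from the Cd4 promoter was present in every group and the L-gp130 allele only in the first genotype. There were 6 L-gp130 and 6 control libraries from CD4+ cells, and 3 L-gp130 and 6 control libraries from CD8+ cells. CD4+ cells were bound to magnetic beads directed at CD4, whereas CD8+ cells were left untouched while other cells were removed, so the lineage and the way of selection cannot be told apart. The Cd4 promoter is active in thymocytes before the CD4 and CD8 lineages part. Each library has its own mouse number within its group.

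gp130, the product of Il6st, is the signalling chain shared by receptors of the interleukin-6 family. IL-6 is bound first by the IL-6 receptor chain (Il6ra), which recruits gp130, and the associated JAK kinases then activate STAT3, a transcription factor that induces the feedback inhibitor SOCS3. The chains encoded by Il27ra, Lifr and Osmr signal in pairs with gp130, for IL-27, leukaemia inhibitory factor and oncostatin M respectively, and Il11ra1 encodes the ligand-binding chain for IL-11. In L-gp130 a leucine zipper takes the place of the extracellular part of gp130, so that the chains pair without a ligand. How reads from the L-gp130 allele were assigned is not given by any source used, and Il6st levels therefore do not check the genotype. Socs3 does bear on it. Socs3 stood at 264 to 432 CPM (counts scaled to library size) in L-gp130 CD4 libraries against 116 to 140.2 in controls, and at 444 to 514 in L-gp130 CD8 libraries against 115 to 171.

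Il6st lies at chr13:112464070-112510086 on the plus strand and Il6ra at chr3:89864059-89913196 on the minus strand (GRCm38, GENCODE annotation). Both Il6ra transcripts, Il6ra-201 and Il6ra-202, code for the full receptor and differ at the start of exon 7, where Il6ra-201 has 3 more bases at chr3:89878893-89878895. The stretch around that junction is shown because it is the one place where the coding parts of these transcripts differ. The capitals mark the extra bases.
Il6ra-201: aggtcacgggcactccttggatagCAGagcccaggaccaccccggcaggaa
Il6ra-202: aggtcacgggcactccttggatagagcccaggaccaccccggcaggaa
Il6ra-202 also runs on for 7105 bases after its coding part, against 1840 bases in Il6ra-201. The main Il6st transcripts, Il6st-201 and Il6st-203, have coding parts of the same length, 2751 bases, with 2418 and 5644 bases after it.

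The 250 bases before the start of Il6st (chr13:112463820-112464069, plus strand) and Il6ra (chr3:89913197-89913446, minus strand) are shown, 5′ to 3′ on the gene's strand. In CPM from the deposited gene counts both genes had no overlap between genotypes in either lineage, with the lower levels in L-gp130. On other scales Il6st overlapped in CD4 cells, as given below. They are RefSeq windows on GRCm38.p6, and 5 of the 6 members had an entry. The Il6st window lies before the start of Il6st-203, whereas Il6st-201 starts further along, at chr13:112475008, and has no window here. Capitals mark a match to the GC box.
Il6st: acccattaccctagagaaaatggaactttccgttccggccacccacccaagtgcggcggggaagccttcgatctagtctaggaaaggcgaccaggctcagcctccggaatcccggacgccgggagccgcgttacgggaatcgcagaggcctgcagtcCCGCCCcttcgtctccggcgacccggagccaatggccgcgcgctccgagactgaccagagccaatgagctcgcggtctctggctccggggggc
Il6ra: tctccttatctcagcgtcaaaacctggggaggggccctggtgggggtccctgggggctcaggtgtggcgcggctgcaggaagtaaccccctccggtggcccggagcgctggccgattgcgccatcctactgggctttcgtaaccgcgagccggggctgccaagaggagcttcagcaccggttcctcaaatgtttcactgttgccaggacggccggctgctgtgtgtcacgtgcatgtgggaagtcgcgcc
Both strands were searched for 3 motifs, and these do not overlap one another. The STAT motif TTCNNNGAA is in 7.02% of all 32851 windows of this length, the FOXO motif TGTTTAC in 3.17% and the GC box GGGCGG in 32.7%. Il6st held 1 GC box and Il6ra none, and neither window held the STAT or the FOXO letters.

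Count totals per library were 17781085 to 21226510 for L-gp130 CD4, 27855757 to 35869208 for control CD4, 17217364 to 19476881 for L-gp130 CD8 and 17719183 to 19286396 for control CD8. In CD4 cells depth therefore goes with genotype. Labelled males made up 4 of 6 L-gp130 and 1 of 6 control mice among CD4 libraries, and 2 of 3 and 4 of 6 among CD8 libraries. The labelled sex was a covariate in the edgeR fits, and the permutation tests of ratios and shares had no covariate. Control CD4 replicate 5 is labelled female and carried reads of a male. L-gp130 CD4 replicate 1 stood apart from its group. Cd4 stood at 520.1 to 785 CPM in CD4 and 3.62 to 13.4 CPM in CD8 libraries, and Cd8a at 7.62 to 92.3 and 817 to 1264 CPM. Summed monocyte and macrophage markers reached 2103 CPM in L-gp130 CD4 replicate 1 and 463 to 1161 CPM in the other CD4 libraries. Their part in the values of that library was not tested. Results without L-gp130 CD4 replicate 1, control CD4 replicate 5 or both are given only where this is stated. All other CD4 results include both libraries. Unless another scale is named, levels are CPM with TMM normalisation. Tests are edgeR's quasi-likelihood F test with Benjamini-Hochberg adjustment over all genes tested, called at an adjusted p under 0.05. SD is given with levels and the standard error (SE) with log2 fold changes.

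Il6ra, the chain that binds IL-6, was lower in L-gp130 cells of both lineages. In control CD4 libraries its lowest, median and highest levels were 414, 427 and 451 CPM, and in L-gp130 CD4 libraries they were 95.7, 177 and 232 CPM. Every L-gp130 library lay below every control library. The means were 173 ± 44.6 (SD, n = 6) and 429 ± 15.5 CPM (SD, n = 6). The fitted log2 fold change was -1.23 ± 0.17 (SE), a drop of 57.3%, with an edgeR adjusted p of 0.000458. Without L-gp130 CD4 replicate 1 and control CD4 replicate 5 it was -1.15, with an adjusted p of 1.01e-05. With all libraries thinned to the smallest total it was -1.22.

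In CD8 cells the Il6ra control libraries had a lowest, median and highest level of 246, 291 and 321 CPM, and the 3 L-gp130 libraries had 161, 183 and 159 CPM. The groups did not overlap. The log2 fold change was -0.77 ± 0.11 (SE), with an edgeR adjusted p of 0.00106. Across the genes tested, 18.9% were called in CD4 cells (7.75% as lower) and 21% in CD8 cells (10.5% as lower). A gap between groups with lower levels in L-gp130 was found for 5.85% of genes in CD4 and 12.4% in CD8 cells.

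Il6st, the shared signalling chain, also had lower levels in L-gp130 libraries. In CD4 cells the control libraries had a lowest, median and highest level of 348, 362 and 395 CPM, and the L-gp130 libraries 132, 289.6 and 339 CPM. The groups did not overlap on this scale, and L-gp130 replicate 1, at 132 CPM, was far below the other 5. From Salmon reads summed per gene the groups did overlap. The lowest control was at 322 CPM and the highest L-gp130 library at 334 CPM. In TPM, which divides reads by transcript length, they overlapped too, at 70.6 and 72.7. The fitted value of -0.32 ± 0.18 (SE, log2 scale) was not called (edgeR adjusted p = 0.245). Without L-gp130 CD4 replicate 1 it was -0.24 with an adjusted p of 0.0122, and without control CD4 replicate 5 as well it was -0.23 with an adjusted p of 0.0255. In CD8 cells the control range was 239.5 to 291 CPM with a median of 255, and the 3 L-gp130 libraries had 185, 193 and 169.7 CPM. Here Il6st fell by 0.52 ± 0.08 (SE) on the log2 scale (edgeR adjusted p = 0.00198), with no overlap.

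**Figure D1:**
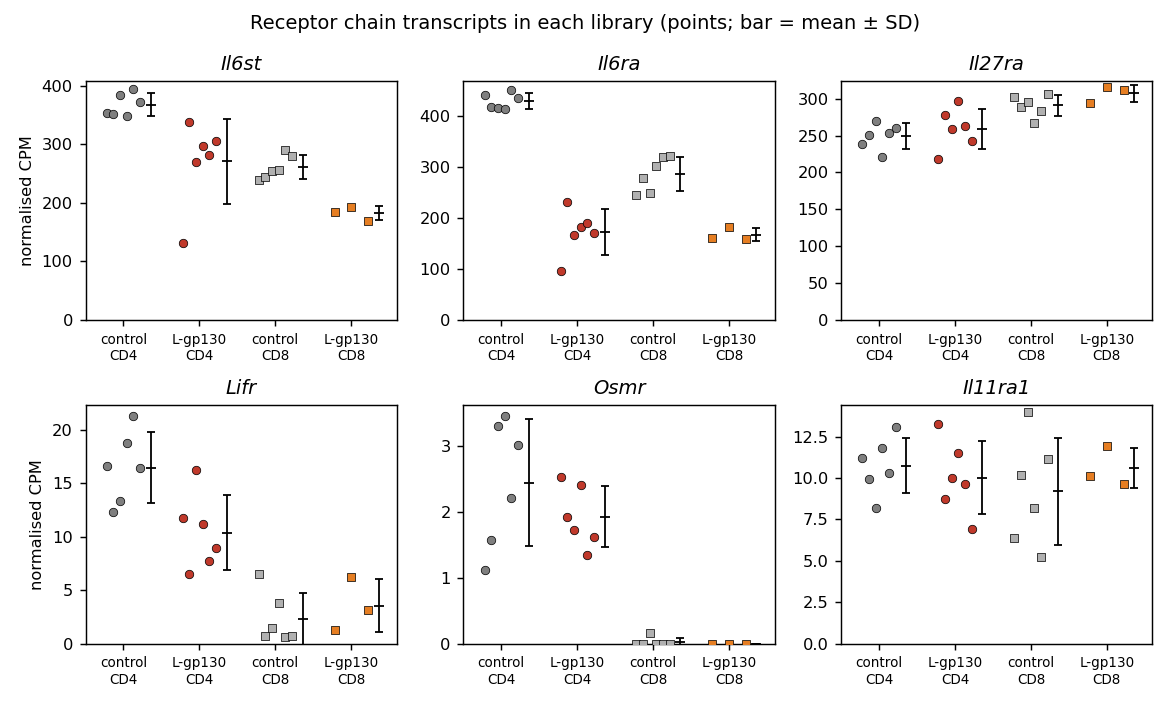
Normalised CPM (vertical axis) of the 6 receptor chains in each library, by group. Points are libraries and bars are the mean with SD. Il6ra in L-gp130 CD4 libraries lies between 95.7 and 232 CPM, below all controls, and Il27ra overlaps between genotypes.

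So 2 of the 6 members were called lower in CD4 cells (Il6ra and Lifr) and none higher. Of all genes tested, 7.75% were called lower and 11.1% higher. Without both doubted libraries 3 members were called lower, beside 1500 of 15032 genes. In CD8 cells 2 of the 5 members tested were called lower (Il6ra and Il6st), beside 10.5% of all genes. The median log2 fold change over the members was -0.30 in CD4 and 0.08 in CD8 cells, beside -0.01 over all genes in each. A cell type by genotype term set the effects of the lineages against each other, on Salmon reads summed per gene over all 21 libraries. By edgeR 0 of 6 members passed, with 2 at an unadjusted p under 0.05, and DESeq2 called 1. The background is 3.46% of genes, 1.83% as higher and 1.62% as lower. For Il6ra the CD4 effect minus the CD8 effect was -0.49 ± 0.19 (SE) on the log2 scale, with an edgeR adjusted p of 0.191. For Il6st it was 0.19 ± 0.22 (SE, edgeR adjusted p = 0.701).

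**Figure D2:**
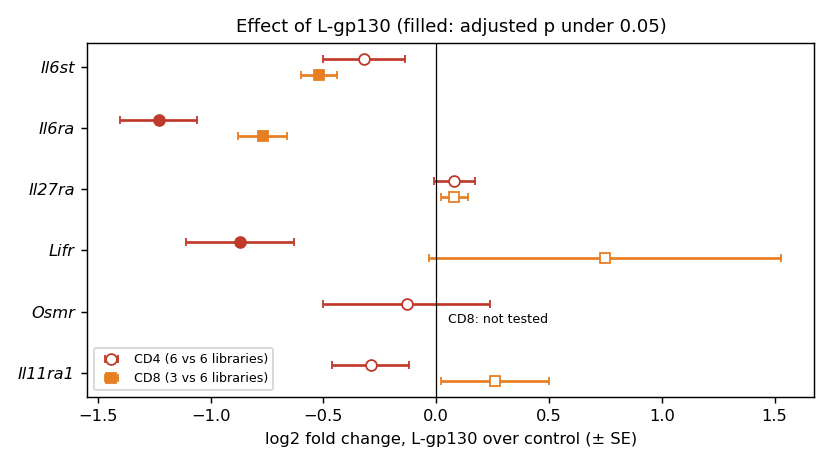
Log2 fold changes of L-gp130 over control with SE (horizontal axis) for each receptor chain in CD4 and CD8 cells. Filled symbols mark an adjusted p under 0.05, which Il6ra has in both lineages.

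Since ligand-binding and signalling chains work together, their relative levels per length were compared, a comparison chosen after the values were seen. On the TPM scale, which divides reads by transcript length, summed per gene, values put Il6ra at 109 ± 6.44 (SD, n = 6) and Il6st at 81.4 ± 7.68 in control CD4 cells. In L-gp130 CD4 cells Il6ra was at 41.7 ± 11.7 and Il6st at 56.9 ± 16.3 TPM (SD, n = 6). The ratio of Il6ra to Il6st TPM ran from 1.24 to 1.44 in control CD4 libraries and from 0.642 to 0.834 in L-gp130 CD4 libraries. L-gp130 CD4 replicate 1, with a ratio of 0.834, was no exception on this scale. The mean log2 ratio was lower by 0.86 in L-gp130, with an exact 2-sided permutation p of 0.00217, the smallest that 6 against 6 can give, and 0.00433 after adjustment over both lineages.

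In CD8 cells the ratio was 1.03 to 1.25 in controls and 0.919, 0.998 and 0.988 in the L-gp130 libraries. The 0.998 is that of replicate 2, where Il6st-202, a transcript of 201 bases, held 5.63 TPM on 2.09 reads. Il6st-202 made up 15.0% of Il6st TPM in that library, and the gap between that library and the controls rests on it. The test was not run without this transcript. The mean log2 ratio was lower by 0.25 (exact 2-sided permutation p = 0.0238, the smallest that 3 against 6 can give, and also 0.0238 after adjustment). Without any 1 of the 3 L-gp130 CD8 libraries the smallest p that can be reached is higher, and the adjusted value was 0.0714 each time. From reads summed per gene, where those reads weigh little, the mean log2 ratio in CD8 cells was also lower by 0.25. The exact permutation test then gave an adjusted p of 0.0476. On that scale the groups overlapped. L-gp130 replicate 2 (Il6ra 183 and Il6st 185 CPM) had a higher ratio than control replicate 1 (247 and 254 CPM). The difference between the lineages in this ratio was not tested.

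**Figure D3:**
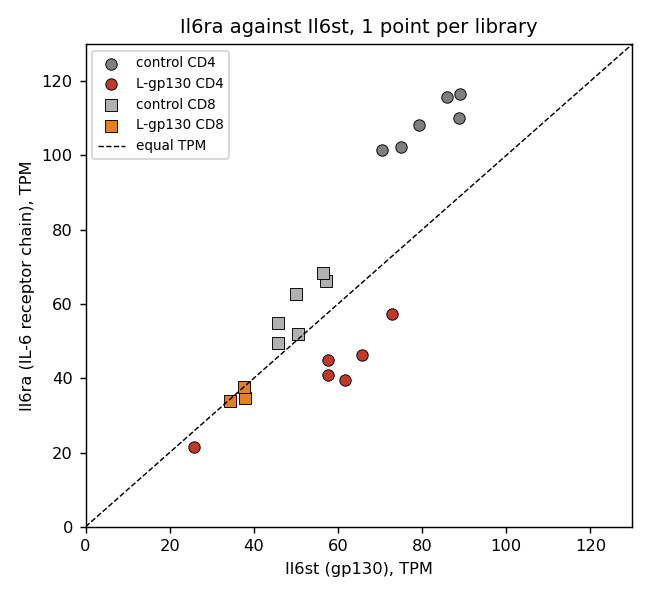
TPM of Il6ra against TPM of Il6st, 1 point per library, with a dashed line at equal levels. Control CD4 libraries lie above the line at ratios of 1.24 to 1.44 and L-gp130 CD4 libraries below it at 0.642 to 0.834.

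Both Il6ra transcripts were lower. In CD4 cells Il6ra-201, the shorter one, had a log2 fold change of -1.22 ± 0.19 (SE) and an edgeR adjusted p of 0.00357. Il6ra-202 had -1.18 ± 0.14 (SE) and 0.000931. Of 39252 transcripts tested, 5.02% were called in CD4 cells, 1.89% as lower and 3.13% as higher. Without control CD4 replicate 1, Il6ra-201 was at -1.06 with an adjusted p of 0.0630. In CD8 cells Il6ra-201 was at -0.76 ± 0.12 (SE) and Il6ra-202 at -0.79 ± 0.12 (SE), with edgeR adjusted p-values of 0.0142 and 0.0123, beside 4.1% of 38993 transcripts called, 2.3% as lower and 1.8% as higher. Leaving out L-gp130 CD8 replicate 1 or replicate 3 ended both calls, with adjusted p-values between 0.0800 and 0.0988. Leaving out replicate 2 ended the call of Il6ra-202, at 0.0549.

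The share of each transcript in its gene was then compared. Il6ra-201 made up 65.7% ± 1.52 (SD, n = 6) of Il6ra TPM in control CD4 libraries and 63.1% ± 3.23 (SD, n = 6) in L-gp130 CD4 libraries. In CD8 cells it made up 64.5% ± 0.799 (SD, n = 6) and 65.2% ± 1.23 (SD, n = 3). Only transcripts with a mean share of at least 5% over the libraries of a lineage were tested. In CD4 cells this left out Il6st-205, of 322 bases. It held 6.94% ± 2.26 (SD) of Il6st TPM in control and 0.541% ± 1.33 (SD) in L-gp130 CD4 libraries, on mean reads of 12.7 and 0.449. By exact permutation tests of 8 shares of Il6ra and Il6st, 0 passed, 0 had an unadjusted p under 0.05, and the adjusted values lay between 0.185 and 0.381. A p that misses the threshold does not show equal shares. In CD8 cells the smallest p these tests can give is 0.0238, which could not pass alone after adjustment over 8 tests. Il6ra-201 and Il6ra-202 make up all of Il6ra, so their tests mirror each other.

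For Il6st, the transcripts Il6st-201 and Il6st-203 held most of the gene's TPM, 50.2% and 41.5% in control CD4 cells. Neither was called in CD4 cells, at log2 fold changes of -0.18 ± 0.19 and -0.31 ± 0.17 (SE). Without L-gp130 CD4 replicate 1, Il6st-203 was at -0.25 with an adjusted p of 0.0363. In CD8 cells Il6st-203 was at -0.61 ± 0.14 (SE, edgeR adjusted p = 0.0476) and Il6st-201 at -0.37 ± 0.10 (SE, edgeR adjusted p = 0.0925). The call of Il6st-203 ended without any 1 of the 3 L-gp130 CD8 libraries or without control CD8 replicate 2, 4, 5 or 6, with adjusted p-values between 0.0765 and 0.191.

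**Figure D4:**
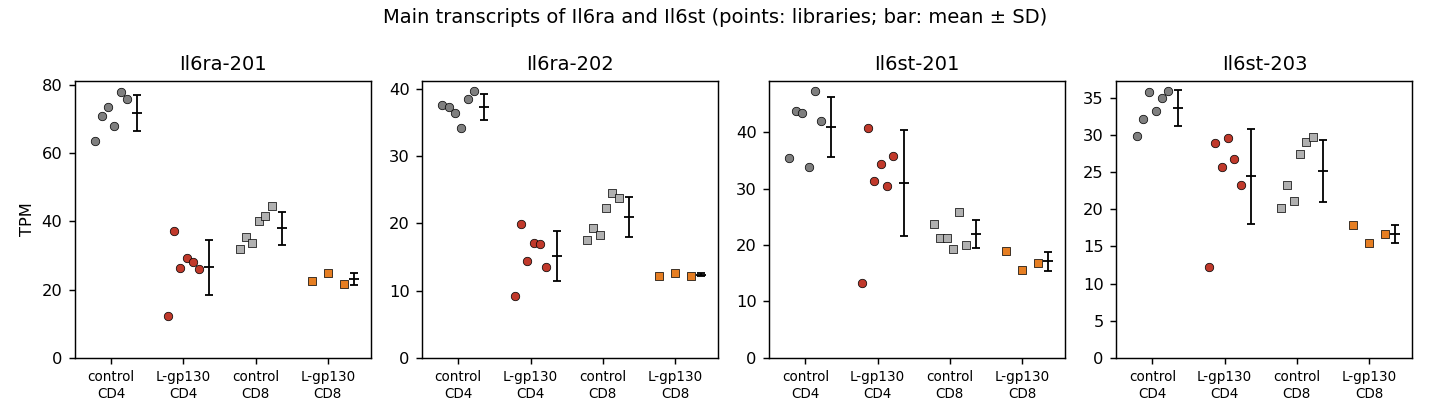
TPM (vertical axis) of the main transcripts of Il6ra and Il6st in each library, by group, with the mean and SD as bars. Both Il6ra transcripts of L-gp130 CD4 libraries lie below all controls, Il6ra-201 at 12.3 to 37.3 TPM against 63.8 to 78.0 TPM.

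Il27ra, the chain that pairs with gp130 for IL-27, passed the test in neither lineage. Its control CD4 levels had a lowest, median and highest value of 221.5, 252 and 270.2 CPM, and the L-gp130 CD4 libraries had 218.5, 260.5 and 296.6 CPM. The groups overlapped, and the difference on the log2 scale, 0.08 ± 0.09 (SE), was not called (edgeR adjusted p = 0.590). In CD8 cells control libraries ranged from 266.5 to 307 CPM, and the L-gp130 libraries had 294, 316 and 311 CPM, again with overlap (0.08 ± 0.06, SE, edgeR adjusted p = 0.386). By length Il27ra was the most abundant member in all 4 groups, at 155 to 168 TPM.

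Lifr encodes the chain that binds leukaemia inhibitory factor. In control CD4 libraries its lowest, median and highest levels were 12.3, 16.5 and 21.3 CPM, and in L-gp130 CD4 libraries 6.56, 10.1 and 16.2 CPM. The groups overlapped. It fell by 0.87 ± 0.24 (SE) on the log2 scale by edgeR, with an adjusted p of 0.0222. That call depends on how reads are turned into gene counts: from Salmon reads summed per gene the value was -0.52 with an adjusted p of 0.146. It also ended without L-gp130 CD4 replicate 2 (-0.69, adjusted p = 0.0969) or replicate 6 (-0.92, adjusted p = 0.0804). In CD8 cells Lifr ran from 0.598 to 6.56 CPM in controls and was 1.31, 6.23 and 3.15 CPM in L-gp130 libraries, and no difference passed (0.75 ± 0.78, SE, edgeR adjusted p = 0.534). For the cell type by genotype term of Lifr edgeR gave -1.42 ± 0.51 (SE) and an adjusted p of 0.146, and DESeq2 gave -1.43 and 0.0499. Without control CD8 replicate 1 edgeR's value was -1.71, with an adjusted p of 0.0296.

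Osmr, the oncostatin M receptor chain, was low in CD4 cells and at or near 0 in CD8 cells. Control CD4 libraries held 1.12 to 3.45 CPM and L-gp130 CD4 libraries 1.35 to 2.54 CPM, with overlap and no call (-0.13 ± 0.37, SE, edgeR adjusted p = 0.833). Without L-gp130 CD4 replicate 2 or 6 the sign turned, to 0.03 and 0.14. In CD8 libraries 8 of 9 held no deposited count, and the ninth, control replicate 3, held 0.155 CPM. Osmr was not tested there. In summed reads control CD4 libraries held 486 Osmr reads of 197297103 and control CD8 libraries 1 of 110984259, a ratio of 273 with a 95% interval of 48.8 to 10800 that covers counting error only.

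Markers of stroma and endothelium, cells outside the T lineage, are given beside Lifr and Osmr. The 11 markers, such as Col3a1, Cdh5 and Cxcl12, summed to 68.0 to 110 CPM in control CD4 libraries, 40.5 to 71.5 CPM in L-gp130 CD4 libraries and 4.85 to 10.4 CPM in control CD8 libraries. In L-gp130 CD8 libraries the sum was 5.23 to 7.71 CPM, with 3 of the 11 markers at 0. In CD4 cells 4 of 9 markers tested were called lower in L-gp130 (Col1a2, Col3a1, Col14a1 and Cxcl12), where 7.75% of all genes were, and none higher. Their part in the Lifr and Osmr levels was not tested. In bulk samples fewer cells of a type and less RNA per cell cannot be told apart.

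**Figure D5:**
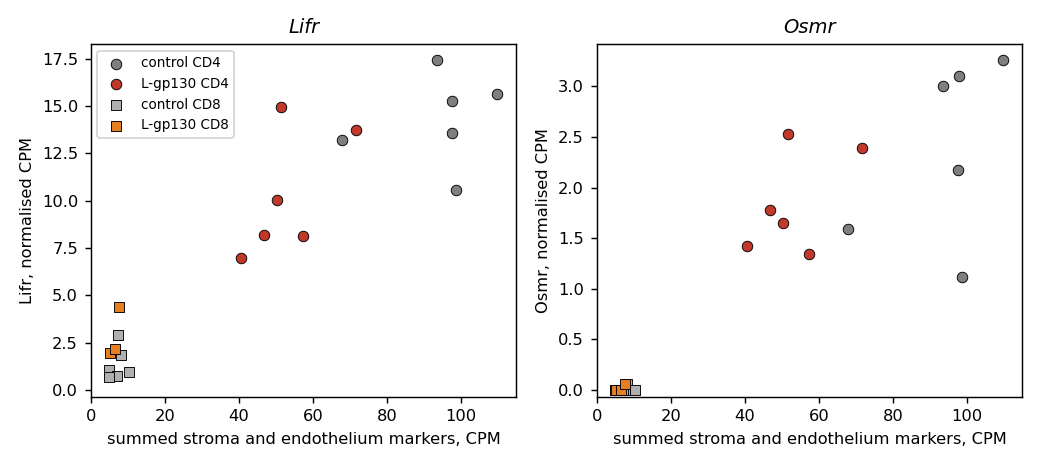
CPM of Lifr and Osmr (vertical axes, reads summed per gene) against the summed CPM of 11 stromal and endothelial markers (horizontal axis), 1 point per library. CD8 libraries lie at sums of 4.85 to 10.4 CPM, with both genes low, and CD4 libraries at 40.5 to 110 CPM.

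Il11ra1, the IL-11 receptor chain, lay at 8.20 to 13.1 CPM in control CD4 libraries and 6.92 to 13.3 CPM in L-gp130 CD4 libraries. In CD8 cells controls ran from 5.22 to 13.99 CPM and L-gp130 libraries had 10.1, 11.96 and 9.67 CPM. The groups overlapped in both lineages and neither test passed (CD4 -0.29 ± 0.17, edgeR adjusted p = 0.251; CD8 0.26 ± 0.24, edgeR adjusted p = 0.472; SE). A near-identical copy, Il11ra2, can share its reads, so the values of Il11ra1 are uncertain.

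Between the lineages of control mice 4 members were higher in CD4 cells and 1 lower, beside 52.3% of genes called, 27.1% as higher and 25.2% as lower. Levels are from summed reads. Il6ra stood at 406 CPM in CD4 and 280.5 CPM in CD8 controls (log2 difference 0.60 ± 0.07, SE, edgeR adjusted p = 1.46e-05), and Il6st at 342.5 and 270.1 CPM (0.40 ± 0.07, SE, edgeR adjusted p = 0.000223). Il27ra was higher in CD8 cells, at 298 against 236 CPM (-0.32 ± 0.05, SE, edgeR adjusted p = 0.000163). Lifr was at 14.3 and 1.36 CPM (3.32 ± 0.35, SE, edgeR adjusted p = 7.01e-06). Il11ra1 did not pass, at 10.5 and 10.1 CPM (0.03 ± 0.14, SE, edgeR adjusted p = 0.863). Summed markers of other cells also differed between control CD4 and CD8 libraries. Medians were 659 and 69.8 CPM for B cells and 912 and 459 CPM for monocytes and macrophages. For erythroid cells they were 10250 and 210 CPM, and for stroma and endothelium 97.6 and 7.31 CPM. NK cell (32.15 and 213.5 CPM), neutrophil (23.5 and 57.7 CPM) and platelet markers (20.9 and 24.9 CPM) went the other way. The part of these cells in the receptor chain levels was not tested.

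Ordered by TPM, control CD4 cells had Il27ra (162), Il6ra (109), Il6st (81.4), Il11ra1 (11.6), Lifr (3.37) and Osmr (0.669), and no neighbours in that order overlapped. L-gp130 CD4 cells had Il6st above Il6ra, at 56.9 and 41.7 TPM. Their ranges overlapped, but Il6st was the higher in 6 of 6 libraries. In control CD8 cells Il6ra, at 58.9 TPM, stood above Il6st, at 51.0 TPM, with overlapping ranges and in 6 of 6 libraries. L-gp130 CD8 cells had Il6st at 36.6 and Il6ra at 35.4 TPM, which overlapped, and Il6st was the higher in 3 of 3 libraries. In replicate 2 the Il6st value includes 5.63 TPM of the short transcript Il6st-202, from 2.09 reads, and the order there rests on them.

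Among 8 related chains, Il23r, which encodes part of the IL-23 receptor, rose in CD4 cells, where 11.1% of all genes were called higher. Control libraries held 0.288 to 0.642 CPM and L-gp130 libraries 1.15 to 3.09 CPM, without overlap (2.47 ± 0.33, SE, edgeR adjusted p = 0.000307). It was the only one of 6 tested that was called. In CD8 cells 1 of 5 was called, beside 10.5% of all genes called higher. This was Il12rb1, the chain shared by the IL-12 and IL-23 receptors. Controls were at 20.6 to 27.2 CPM and L-gp130 libraries at 36.1, 39.6 and 49.6 CPM (0.77 ± 0.10, SE, edgeR adjusted p = 0.000798). In CD4 cells Il12rb1 stood at 20.0 to 29.9 against 34.6 to 84 CPM, where the highest was L-gp130 CD4 replicate 1, and the test gave an edgeR adjusted p of 0.0537.

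Of the ligands of the family, 5 were tested in CD4 and 6 in CD8 cells. Over all genes tested, 11.1% were called higher and 7.75% lower in CD4 cells, and 10.5% each way in CD8 cells. Lif, which encodes leukaemia inhibitory factor, rose in both, from a median of 3.344 to 12.3 CPM in CD4 (2.31 ± 0.44, SE, edgeR adjusted p = 0.00391) and from 1.04 to 6.81 CPM in CD8 cells (2.63 ± 0.37, SE, edgeR adjusted p = 0.00117). No ligand was called lower in CD8 cells, and in CD4 cells Clcf1 was (-0.48 ± 0.13, SE, edgeR adjusted p = 0.0184). Without L-gp130 CD4 replicate 6 the value for Clcf1 was -0.34 with an adjusted p of 0.104.

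Calls among the signalling genes below gp130 are set beside all genes tested. Of those, 11.1% were called higher and 7.75% lower in CD4 cells, and 10.5% each way in CD8 cells. In CD4 cells 5 of the 13 signalling genes were called higher and none lower. Among them were Socs3 (1.55 ± 0.12, SE, edgeR adjusted p = 4.02e-06), Stat3 (0.63 ± 0.07, SE) and Ptpn11, which encodes the phosphatase SHP2 (0.75 ± 0.09, SE). In CD8 cells 3 were called higher and 1, Jak1, lower (-0.35 ± 0.06, SE, edgeR adjusted p = 0.00392). Genes of receptor shedding and turnover gave 0 of 7 calls in CD4 cells by edgeR, with 2 at an unadjusted p under 0.05 and 0 by DESeq2. In CD8 cells Cbl, a ubiquitin ligase, was lower (-0.70 ± 0.16, SE, edgeR adjusted p = 0.0148). That call ended without L-gp130 CD8 replicate 2 (-0.67, adjusted p = 0.0624) or replicate 3 (-0.68, adjusted p = 0.0775).

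Receptor chains that use the common gamma chain were split. In CD4 cells Il7r, the IL-7 receptor chain, fell from a median of 456 to 169.9 CPM (-1.23 ± 0.23, SE, edgeR adjusted p = 0.00436). Without control CD4 replicate 1 this was -0.85 with an adjusted p of 0.0741. Il9r rose in CD4 cells (1.08 ± 0.13, SE), and Il4ra was called lower, a call that did not hold in 5 of the 12 fits without 1 library. In CD8 cells 3 of 8 were called higher, beside 10.5% of all genes, with Il2ra first (1.33 ± 0.26, SE, edgeR adjusted p = 0.00549). Il9r, at 1.47 ± 0.34 (SE), was not called in 2 of the 9 fits without 1 library, and Il15ra in 8 of 9.

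Summed levels of naive T cell genes are given beside Il6ra and Il6st. The 13 genes, with Ccr7 among them, summed to 5719 to 6858 CPM in control CD4 libraries and 2886 to 5742 CPM in L-gp130 CD4 libraries, where the lowest was replicate 1. In CD8 cells they summed to 6489 to 7504 and 5021 to 5871 CPM. In CD4 cells 8 of 13 were called lower, beside 7.75% of all genes. Without L-gp130 CD4 replicate 1 and control CD4 replicate 5 it was 11 of 13, beside 1500 of 15032 genes. In CD8 cells 10 of 13 were called lower, beside 10.5% of all genes. The part of the naive T cell genes in the Il6ra and Il6st levels was not tested.

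The genes with the pattern most like a member's were found by Pearson correlation of log2 CPM over the 12 CD4 and the 9 CD8 libraries, among 8813 genes. The libraries share their depth and their group, and the values are descriptions. For Il6ra they were Vezf1, Atrn and Tet3, each with r of 0.98 in CD4 and 0.98 in CD8 libraries. For Il6st they were Tnrc18 (0.96 and 0.97), Inpp4b (0.95 and 0.99) and St6gal1 (0.95 and 0.98). The CD4 values include L-gp130 replicate 1, where Il6st stood at 132 CPM, and were not computed without it. In CD4 cells none of these genes was called (edgeR adjusted p = 0.402, 0.671 and 0.344). Likeness was weaker for Il27ra, where Tubgcp4 had 0.81 and 0.86, and for Lifr, where Kctd12 had 0.63 and 0.62.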

How the data were processed

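RNA sequencing of 21 libraries was read from files the authors deposited. The submitters' processing notes name edgeR 3.34.1, Salmon 1.5.2, Trimmomatic 0.39, cutadapt 3.4 and the GRCm38 build, with no role or order. For each lineage a gene table deposited by the authors holds estimated counts, which are not whole numbers. Salmon files, 1 per library, hold reads per transcript as estimated counts, and TPM, per the file headers. The normalised CPM tables were not used. GENCODE mouse release 21 gave symbols for 51115 of 51201 gene IDs, and 694 of 137641 transcripts had no match (0.144% to 0.209% of reads). Per the labels' protocols sequencing was unstranded, so overlapping antisense reads cannot be told apart.

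Estimated counts were rounded. Each lineage had its own 2-sided quasi-likelihood F test, robust, from edgeR 4.0.16 (R 4.3.3), after filterByExpr and TMM scaling and with labelled sex as covariate. The SE was obtained by dividing the absolute log2 fold change by the root of F. The cell type by genotype term, the control comparison and the transcripts used Salmon reads. Shares and ratios were tested by exact permutation (scipy 1.17.1), without the sex covariate. The fits were tested on simulated data. Other settings tried were DESeq2 1.42.0, RLE scaling, limma 3.58.1 on log2(TPM + 0.1) and log2(TPM + 1), no filter, no sex covariate, sex read from reads, summed or thinned reads, joined tables, subsets of controls, each library left out in turn and a block for replicate number. The Il6ra to Il6st ratio, and its alternatives, and the interaction and transcript fits without 2 doubted libraries, were chosen after seeing the data. P-values measure the spread between these mice.

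Members and gene lists were chosen with earlier results of these data known. Named are the 6 members, the related receptor chains, up to 4 called members per list and lineage with the smallest adjusted p, and for each member the 3 genes with the highest lower correlation of the 2 lineages, where mean log2 CPM is at least 3.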

Additional observations from a re-analysis of the deposited data

Results flagged for a closer look

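Of 38 groups of libraries checked, 6 had 1 library far from the others, where chance gives about 1 in 20. The checks share libraries and are not independent, and the count was not tested against that rate. For Il6st, L-gp130 CD4 replicate 1 stood at 132 CPM, with the other 5 at 269.8 to 339 CPM. The same library was high for Csf3r (50.1 CPM, others 5.92 to 15.9), Il12rb1 (84 CPM, others 34.6 to 46.1) and Il12rb2 (50.6 CPM, others 4.74 to 8.98). Replicate 4 of the same group was high for Lepr (2.58 CPM, others 0.365 to 0.850). For Osmr, control CD8 replicate 3 held 0.155 CPM and the other controls none.

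Of 32 genes checked, 4, all outside the members, had an effect that differed between CD4 and CD8 cells by edgeR's cell type by genotype term. Over all genes tested 3.46% were called for this term. The CD4 minus CD8 difference in log2 fold change was 2.97 for Il23r (adjusted p = 0.00106), 0.79 for Ptpn11 (adjusted p = 0.000555), -1.18 for Il7r (adjusted p = 0.0280) and -1.08 for Il2ra (adjusted p = 0.00863). For Il7r the call ended in 5 of the 21 fits without 1 library.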

How the results depend on the processing

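Of 1975 values under an alternative for 104 results, 1826 kept their direction and side of the threshold. Il6ra kept its direction and call in each fit of both lineages, at -1.46 to -1.08 in CD4 and -0.91 to -0.62 in CD8 cells, and Il6st did in CD8 cells at -0.60 to -0.43. For other values the cause was not tested.

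At an adjusted p under 0.01 the calls were 1272 in CD4 cells, 1249 in CD8 cells, 195 for the interaction, 698 for CD4 transcripts and 309 for CD8 transcripts. At that threshold the calls of Lifr in CD4 cells (-0.87) and, in CD8 cells, of Il6st-203 (-0.61), Il6ra-202 (-0.79) and Il6ra-201 (-0.76) ended. For the interaction DESeq2 called 955 genes, 353 were called in a fit of the joined gene counts, and the fit without L-gp130 CD4 replicate 1 and control CD4 replicate 5 called 888; in the latter setting Il6st in CD4 cells was at -0.23 and called. No filter left 1237 CD4 transcripts. With summed reads Lifr in CD4 cells was at -0.52. In the joined tables the interaction of Il27ra was -0.02 and of Osmr 2.58, and by DESeq2 that of Lifr was -1.43 and called. By limma, Il6st-203 in CD8 cells was at -0.57 (TPM + 0.1) and -0.55 (TPM + 1), not called. As a share of reads, Il6st-203 in CD4 cells differed by -0.349 percentage points, against 2.08 by TPM.

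Equal replicate numbers did not pair the samples: their deviations correlated at -0.47 to 0.51 in CD4 cells and -0.09 to 0.26 in CD8 cells, and 3 of 9 L-gp130 libraries correlated best with the control of their own number. With the replicate block the interaction had 268 calls, CD4 transcripts 357 and CD8 transcripts 0 by edgeR, with 5991 at an unadjusted p under 0.05, while limma without the block called 1271 (TPM + 0.1) and 1566 (TPM + 1). Under the block Il27ra was at -0.03 and Osmr at 0.18 in CD4 cells, the interaction of Il27ra at -0.0047, Lifr in CD4 cells at -0.76, Il6ra-201 in CD4 cells at -1.48, and in CD8 cells Il6st-203 at -0.40, Il6ra-202 at -0.61 and Il6ra-201 at -0.60, none of them called.

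With each library left out in turn, calls ranged from 1411 to 3642 in CD4 cells, 1374 to 2967 in CD8 cells, 236 to 984 for the interaction, 737 to 2590 for CD4 transcripts and 243 to 1489 for CD8 transcripts. The log2 differences ranged from -0.40 to -0.20 for Il6st, -1.08 to -0.69 for Lifr and -0.61 to 0.14 for Osmr in CD4 cells. For the interaction they ranged from -0.02 to 0.06 for Il27ra, -1.71 to -1.09 for Lifr and -2.30 to 1.17 for Osmr. Il11ra1 between control lineages ranged from -0.24 to 0.15, and the log2 ratio of Il6ra to Il6st in CD8 cells from -0.28 to -0.21. Among transcripts the ranges were -1.38 to -1.06 for Il6ra-201 and -0.38 to -0.25 for Il6st-203 in CD4 cells, and in CD8 cells -0.84 to -0.68 for Il6ra-201, -0.84 to -0.73 for Il6ra-202, -0.67 to -0.54 for Il6st-203 and -0.94 to 0.19 for Il6st-208 in the 7 of 9 fits that tested it. Calls moved by over 1.5 times in CD4 cells without L-gp130 replicate 6 (1411) or control replicate 1 (1529), and in CD8 cells without L-gp130 replicate 1 (1374), 2 (1865) or 3 (1554). For the interaction this held without L-gp130 CD4 replicate 1 (984) or 6 (363) or L-gp130 CD8 replicate 1 (236) or 2 (328). For transcripts it held without L-gp130 CD4 replicate 6 (737) or control CD4 replicate 1 (757) or 6 (1301), and without L-gp130 CD8 replicate 1 (243), 2 (483) or 3 (280) or control CD8 replicate 5 (965). Low counts limit Osmr and Lifr in CD8 cells.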
